A study of Mus musculus with 12 samples.

Results

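The genes described here are 9 complement components and receptors, taken by name out of 56735 gene names measured by bulk RNA-seq. They are the 3 chains of C1q (C1qa, C1qb and C1qc), the components C3, C4b and C4a, properdin (Cfp), and the receptors C3ar1 and C5ar1. Libraries were made from CD206+ cells that were sorted from mouse brains without choroid plexuses, a gate meant for subdural CNS-associated macrophages (sdCAMs). These long-lived macrophages line the leptomeninges and brain vessels. All mice were Mrc1CreERT2/CreERT2:R26tdT/tdT, received tamoxifen 4 weeks before treatment, and were sampled 8 weeks after 7 days of treatment. The Mrc1 locus, which encodes CD206, drives the inducible Cre, so cells that expressed it at the time of tamoxifen, and their progeny, carry the red reporter tdT. The 3 groups of 4 libraries were tdT+ cells of mice given vehicle (vehicle tdT+), tdT+ cells of mice given 200 mg/kg BLZ945, an inhibitor of the CSF-1 receptor that depletes macrophages (BLZ945 tdT+), and tdT- cells of mice given the same dose of BLZ945 (tdT-). Libraries carry the mouse labels F1, F2, M1 and M2, and the tdT- and BLZ945 tdT+ libraries of 1 label came from the same mouse, whereas the vehicle mice were other animals. A tdT- cell can descend from cells without Cre activity or can have escaped labelling, and these cannot be told apart. The library names of vehicle and BLZ945 mice also differ in the words pre and Post, so any difference in time of isolation cannot be told apart from treatment.

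Complement is a set of proteins that tag particles and cells for removal. In the classical pathway C1q binds a target and its associated proteases cut C4 and C2, whose fragments together form an enzyme that cuts C3. Ficolins start the lectin pathway and join it at C4, while properdin stabilises the C3-cutting enzyme of the alternative pathway, and the small fragments C3a and C5a act on C3ar1 and C5ar1. Macrophages of the brain and its borders are known as a main source of C1q in the brain.

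The libraries held between 19969300 and 23395100 counts, and 3 counts, used as the detection floor, corresponded to between 2.60 and 3.16 normalised counts. A normalised count is the count of a gene divided by the size factor of its library. All 10 sdCAM markers were counted in the 12 libraries, and their summed level was 268101 to 297895 normalised counts in vehicle tdT+, 296221 to 380893 in BLZ945 tdT+ and 112467 to 167246 in tdT- libraries. The 8 microglia markers, among them P2ry12, Tmem119 and Sall1, summed to 64616 to 97055, 96995 to 125787 and 244033 to 515455 in the same order, and all 8 were higher in tdT- libraries than in either tdT+ group (DESeq2, adjusted p at most 0.05). In bulk libraries, fewer cells of a type and less RNA per cell cannot be told apart, and the part of microglial RNA in the results below was not tested. The library tdT- F2 stood apart, with 423109 normalised counts over 8 neutrophil markers, where the other 11 libraries had between 0.920 and 93.9. Mrc1 itself had 6012 to 8870 normalised counts in vehicle tdT+, 8004 to 12341 in BLZ945 tdT+ and 2232 to 3882 in tdT- libraries. The reporter RNA could not check the sort, because no library had a count for tdTomato.

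**Figure D1:**
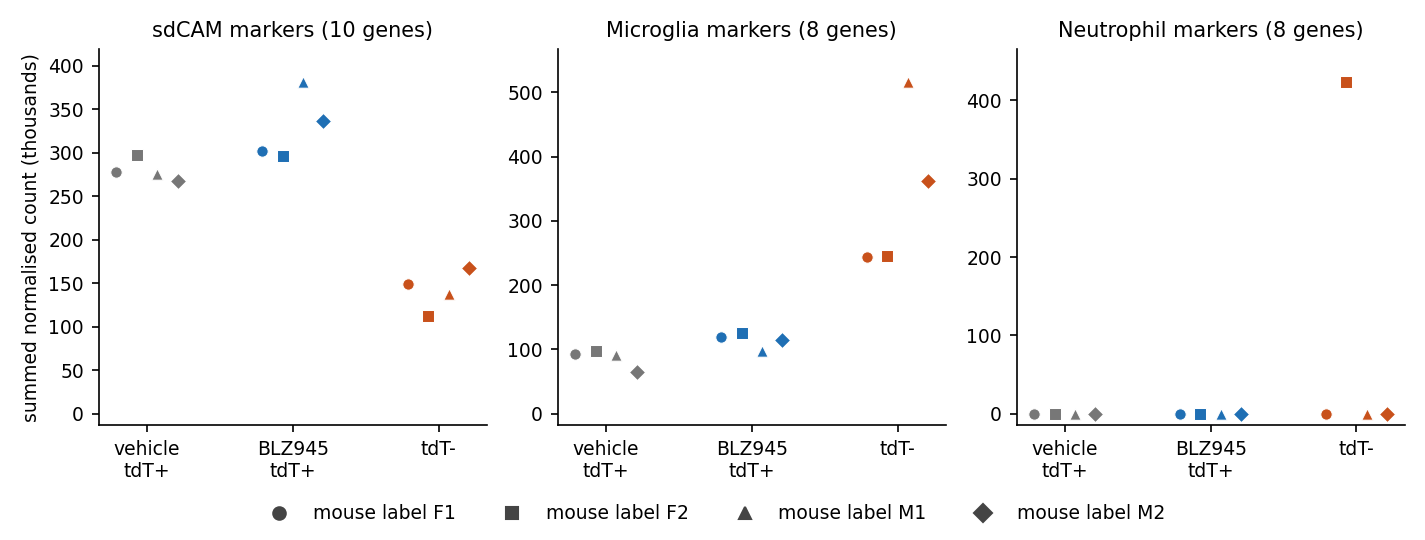
Summed normalised counts (divided by 1000 on the axis) of 10 sdCAM, 8 microglia and 8 neutrophil marker genes, 1 symbol per library, the shape giving the mouse label. The 4 tdT- libraries lie below both tdT+ groups for sdCAM markers and above both for microglia markers, and tdT- F2 alone is high for neutrophil markers.

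The sequences that bear on these genes are of 2 kinds. The first concerns C4b and C4a, a pair of close copies on chromosome 17, because reads that fit both genes were not counted. The GENCODE transcripts C4b-201 (5379 bases) and C4a-207 (5371 bases) were identical at 96.1% of 5367 aligned positions. Of the 50-base windows of the C4b transcript 35.2% occur unchanged in C4a, and a read from such a stretch was lost to both genes. That length is the one in the study's methods, whereas the sample labels name another sequencer. The 60 bases of a single coding exon in which the copies differ most are shown, with the 13 differing bases in capitals. They lie in exon 21 of 41 of each transcript, on the minus strand, at chr17:34735430-34735489 for C4b and chr17:34816086-34816145 for C4a (GRCm38).
C4b: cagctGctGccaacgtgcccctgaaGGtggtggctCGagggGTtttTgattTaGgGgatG
C4a: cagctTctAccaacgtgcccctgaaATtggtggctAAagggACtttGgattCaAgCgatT

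The second kind are the 250 bases before the start of C1qb and C1qc, shown because the C1q chains were the members of highest level and lie side by side. RefSeq promoter sequences (GRCm38.p6) were matched for 6 of the 9 members, not for C1qa, C4b or C4a. Capitals mark the letters GAGGAA, the core bound by ETS factors such as PU.1, and TGCTGA, a half-site of Maf factors, both searched on both strands. The 2 motifs can share the letters GA, but did not overlap here. The C1qb stretch is chr4:136886201-136886450 and the C1qc stretch chr4:136892915-136893164, both on the minus strand.
C1qb: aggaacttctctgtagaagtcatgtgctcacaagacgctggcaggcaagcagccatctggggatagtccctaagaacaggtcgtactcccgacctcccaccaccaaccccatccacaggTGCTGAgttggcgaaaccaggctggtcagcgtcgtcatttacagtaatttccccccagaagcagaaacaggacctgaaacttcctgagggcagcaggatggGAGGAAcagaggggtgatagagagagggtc
C1qc: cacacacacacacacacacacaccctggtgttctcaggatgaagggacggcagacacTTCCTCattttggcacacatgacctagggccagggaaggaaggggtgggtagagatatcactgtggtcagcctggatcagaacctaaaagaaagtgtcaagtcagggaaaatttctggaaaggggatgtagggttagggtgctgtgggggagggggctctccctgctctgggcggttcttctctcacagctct
In C1qb GAGGAA stands 30 to 25 bases and TGCTGA 131 to 126 bases before the start, and in C1qc GAGGAA stands on the other strand at 193 to 188 bases. These letters are common, since 23.3% of 32851 promoters hold GAGGAA in the same window, 16.1% hold TGCTGA and 3.68% hold both.

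All 9 members passed the filter on low counts. Their levels spanned a wide range when scaled per kb of exon, the scale on which genes can be compared. C1qb ranked 7 of 13724 genes, C1qa 8 and C1qc 10, with means over the 12 libraries of 147473, 122951 and 86728 normalised counts per kb. On this scale C1qb was above C1qa, and C1qa above C1qc, in each of the 12 libraries. The 3 chains together made up between 1.81 and 2.57% of all counts of a library. C5ar1 (rank 124), C3ar1 (197), C4b (206) and Cfp (213) followed at means of 6525, 4581, 4475 and 4324 per kb. In vehicle tdT+ cells these 4 genes stood at 6386 ± 567 for C5ar1, 5882 ± 1023 for C4b, 5220 ± 850 for Cfp and 4632 ± 73.9 for C3ar1 (SD, n = 4), and each overlapped its neighbour in this order. C3 lay far below (rank 4593, 162 per kb) and C4a near the floor (rank 13465, 2.13 per kb).

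**Figure D2:**
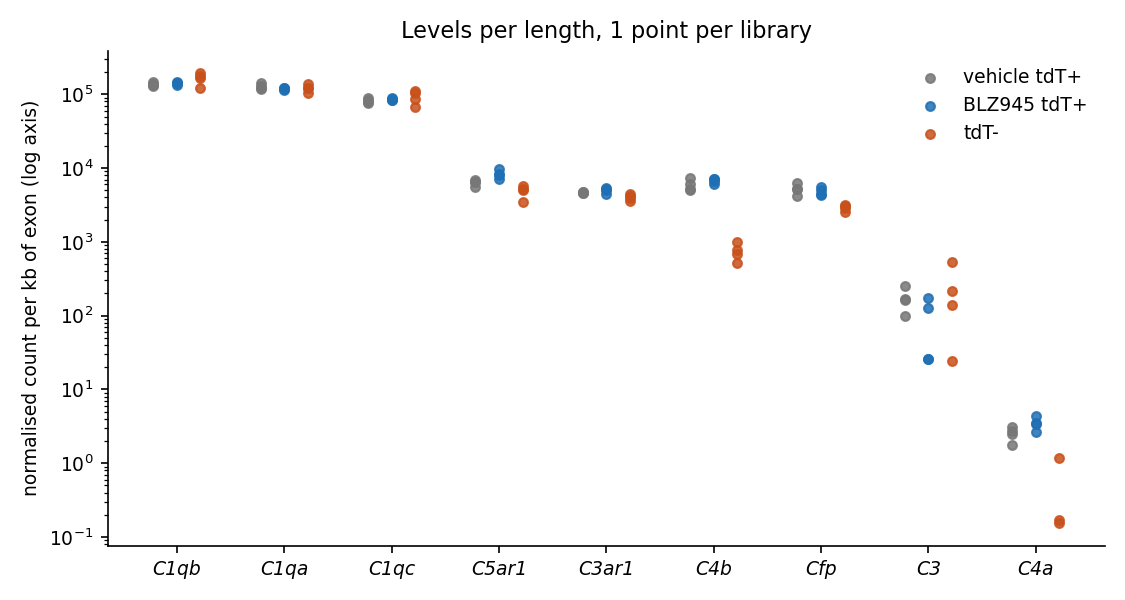
Normalised counts per kb of exon on a log axis for the 9 members, 1 point per library and colours for the 3 groups. The C1q chains stand above all other members, C4b falls from 6799 to 742 per kb on average between BLZ945 tdT+ and tdT- libraries, and the tdT- library with 0 counts of C4a cannot be drawn.

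The members lie on 5 chromosomes (GRCm39, coordinates of the deposited table), all on the minus strand. The C1q genes form a cluster on chromosome 4, C1qb at 136607440 to 136613498, C1qc at 136617115 to 136620376 and C1qa at 136623228 to 136626114, with gaps of 3616 and 2851 bases. C4b (34947354 to 34962856) and C4a (35028069 to 35042440) lie 65212 bases apart on chromosome 17, which also holds C3 (57510970 to 57535136). Cfp is on chromosome X (20791693 to 20797794), C3ar1 on chromosome 6 (122824097 to 122833120) and C5ar1 on chromosome 7 (15980668 to 15993465). The exons of 0 of the 9 members overlap those of another gene.

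The comparison of tdT- with BLZ945 tdT+ cells sets cells of different labelling history against each other within the same mice. C4b fell 9.16-fold in tdT- cells and was the member that differed most. Cfp fell 1.66-fold, C5ar1 1.72-fold and C3ar1 1.26-fold, while C1qa, C1qb, C1qc, C3 and C4a did not pass the test. In counts, 4 of 9 members passed (DESeq2, Benjamini-Hochberg adjusted p at most 0.05 over all genes), all of them lower, against 6.54% of all genes tested and 3.61% in the lower direction. Of the abundant genes (mean of 1000 normalised counts or more), to which all 4 belong, 14.5% passed. The median shrunken log2 fold change was -0.15 over the 9 members and 0.00 over all genes tested. The -0.15 is the value of C4a, a gene near the floor, so this median cannot stand for the members as a set. A differentially expressed gene (DEG) had in addition a shrunken log2 fold change of 1 or more in either direction, and 1 of 9 members (C4b) was one, against 2.31% of genes. The groups did not overlap for 5 of 9 members, against 9.48% of genes. Among them was C4a, which the filter kept only through its tdT+ counts. The quasi-likelihood test of edgeR passed the same 4 members, against 2.75% of genes. With the mouse as a block edgeR passed C4b alone, and 100 genes in all, against 377 without the block. DESeq2 with the mouse as a block passed 4 members and 998 genes in all.

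C4b, whose product is cleaved in the classical and lectin pathways, had 34298, 38476, 40936 and 41177 normalised counts in the BLZ945 tdT+ libraries F1, F2, M1 and M2. In the tdT- libraries of the same mice it had 5614, 2904, 3931 and 4459. The highest tdT- library thus lay far below the lowest tdT+ library. The means were 38722 ± 3192 and 4227 ± 1128, a log2 fold change of -3.18 ± 0.17 (SE, DESeq2 adjusted p = 2.39e-76, edgeR adjusted p = 1.70e-06). With the mouse as a block, edgeR gave an adjusted p of 0.00434.

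C4a had 23, 24, 16 and 26 counts in the BLZ945 tdT+ libraries and 1, 0, 7 and 1 in the tdT- libraries, so the groups did not overlap, but the test was not passed (DESeq2 adjusted p = 0.120). Pooled over the libraries of a group, its share of the C4a and C4b counts had overlapping intervals in all groups. C4a made up 0.0562% of the C4a and C4b counts in BLZ945 tdT+ libraries (95% exact Clopper-Pearson interval 0.0452 to 0.0692%), 0.0470% in vehicle tdT+ libraries (0.0364 to 0.0597%) and 0.0534% in tdT- libraries (0.0244 to 0.101%), intervals that cover counting error only. With both rows summed, the log2 fold change was -3.18 (DESeq2 adjusted p = 2.05e-76). Without tdT- M1, which held 7 of the 9 tdT- counts, C4a passed (adjusted p = 0.0164). All its tdT- counts were under the minimum of 10, so the filter kept C4a only through tdT+ libraries. Neither the lack of overlap nor this pass can therefore support a fall of C4a beside that of C4b.

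Cfp, the positive regulator of the alternative pathway, had 7724, 9662, 8638 and 7546 normalised counts in BLZ945 tdT+ libraries F1, F2, M1 and M2 and 4935, 4442, 5351 and 5525 in tdT- libraries. All 4 tdT- libraries were lower than any BLZ945 tdT+ library. The log2 fold change was -0.69 ± 0.14 (DESeq2 adjusted p = 6.60e-06, edgeR 0.00646, edgeR with the mouse as a block 0.0899).

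C5ar1, the receptor of C5a, had 18457, 21302, 25356 and 20597 normalised counts in BLZ945 tdT+ libraries and 13394, 8861, 14694 and 12939 in tdT- libraries. Again the groups did not overlap, and tdT- F2 was lowest. The log2 fold change was -0.74 ± 0.15 (DESeq2 adjusted p = 7.19e-06, edgeR 0.0103, edgeR with the block 0.0824).

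C3ar1, the receptor of C3a, had 23361, 21853, 19478 and 22760 normalised counts in BLZ945 tdT+ libraries and 19023, 15457, 17787 and 17151 in tdT- libraries. The groups lay close together and did not overlap. The log2 fold change was -0.32 ± 0.08 (DESeq2 adjusted p = 0.00171, edgeR 0.0487, edgeR with the block 0.288), and without tdT- F2 edgeR gave an adjusted p of 0.0810.

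The signs of Cfp, C5ar1 and C3ar1 turned with 1 scaling that also moved the median of all genes. With size factors taken from the 10 sdCAM markers, an alternative chosen after the data had been seen, the median of all genes moved to 1.14 on the log2 scale and these 3 genes stood at 0.39, 0.34 and 0.79. Relative to that median they were at -0.76, -0.80 and -0.35, and C4b remained lower on either reading (-2.07, or -3.21 relative to the median). Subtracting the median takes out the shift that this scaling adds to all genes, so the relative values cannot test the signs. They also set shrunken fold changes against a median of unshrunken ones.

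**Figure D3:**
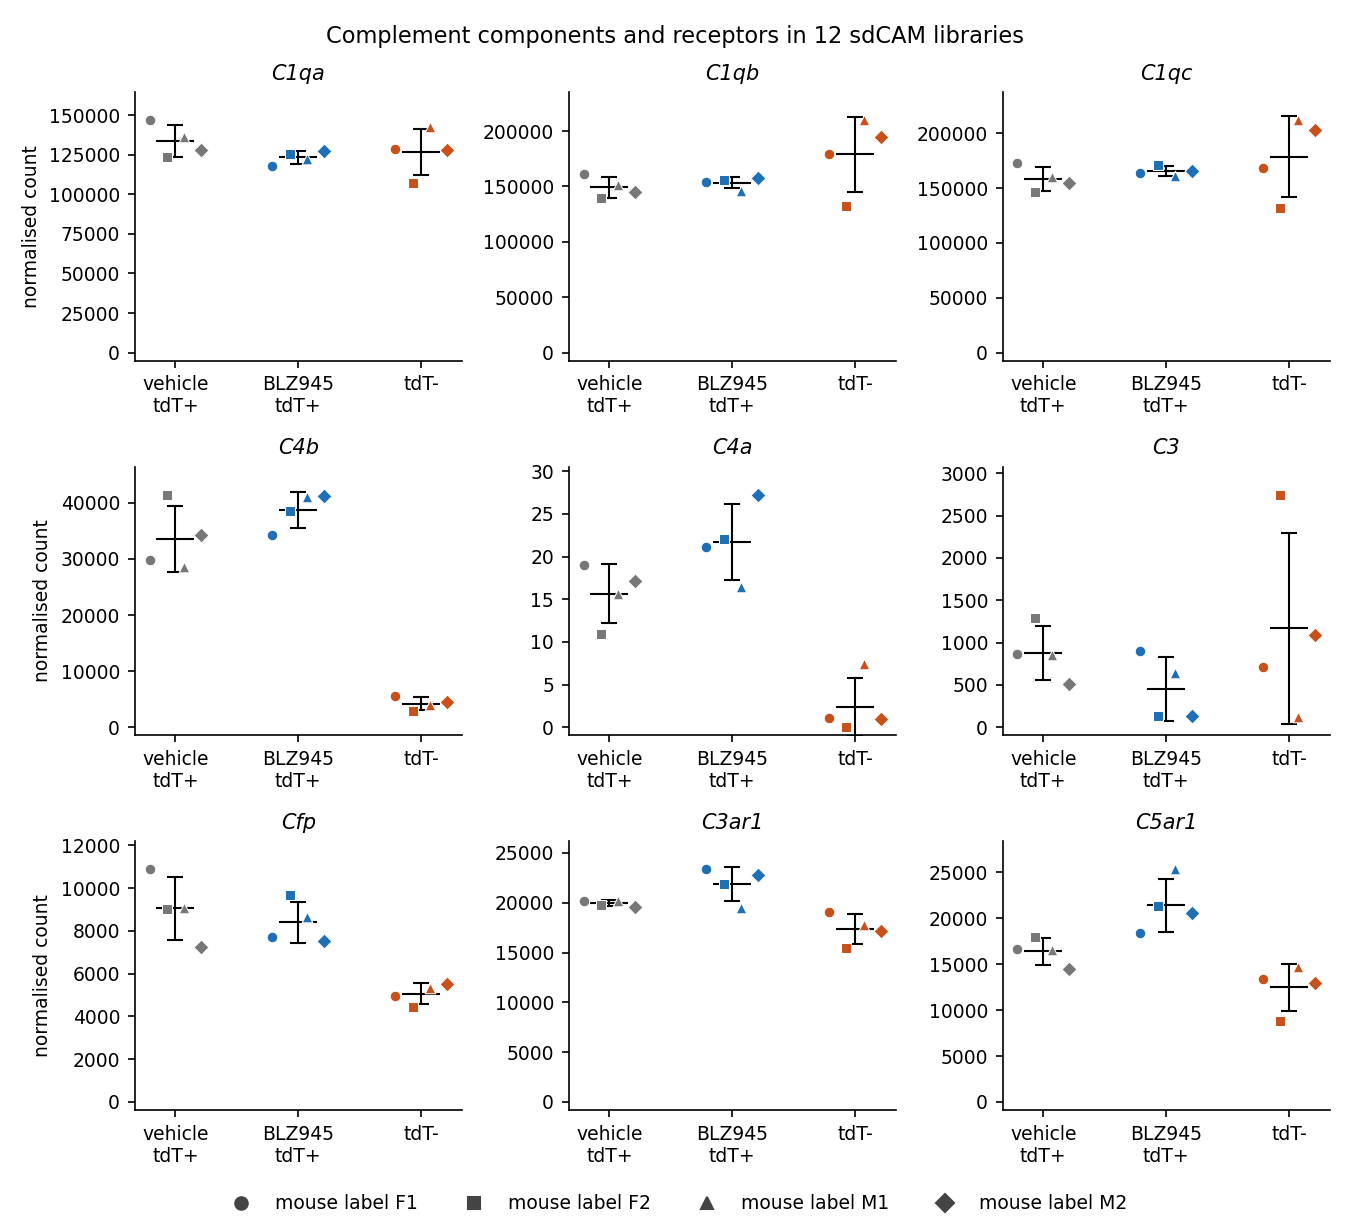
Normalised counts of the 9 members in the 12 libraries, 1 symbol per library with the shape giving the mouse label, and the mean ± SD of each group of 4. C4b, C4a, Cfp, C3ar1 and C5ar1 have tdT- libraries below all BLZ945 tdT+ libraries (scaled to sdCAM markers, Cfp, C3ar1 and C5ar1 turn positive but stay below the median of all genes), whereas the groups overlap for C1qa, C1qb, C1qc and C3.

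The C1q chains, which form the recognition molecule of the classical pathway, had about the same level in tdT- cells. C1qa had 117743, 125682, 122279 and 127549 normalised counts in BLZ945 tdT+ libraries and 128405, 106995, 142284 and 128170 in tdT- libraries. The groups overlapped, and the log2 fold change without shrinkage was 0.04 (95% interval -0.13 to 0.21, DESeq2 adjusted p = 0.941). C1qb had 153971, 155414, 146152 and 157596 in BLZ945 tdT+ and 179072, 131999, 210061 and 194345 in tdT- libraries. Here 3 of 4 tdT- libraries lay above every tdT+ library and tdT- F2 below, with a log2 fold change of 0.22 (-0.00 to 0.45, adjusted p = 0.314). C1qc had 163595, 171332, 160734 and 165276 in BLZ945 tdT+ and 168681, 131416, 212150 and 202681 in tdT- libraries, with a log2 fold change of 0.11 (-0.12 to 0.35, adjusted p = 0.802). All 3 intervals leave out a change as large as that of C4b or Cfp. With size factors from the sdCAM markers C1qa, C1qb and C1qc stood at 1.16, 1.34 and 1.22 and passed as higher. Relative to the median of all genes under that scaling they were at 0.01, 0.19 and 0.08.

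The result for C1qb rested on tdT- F2, the library with neutrophil RNA. Without it C1qb passed the test as higher in tdT- than in BLZ945 tdT+ cells, with a log2 fold change of 0.33 in DESeq2 (adjusted p = 7.73e-05) and 0.32 in edgeR (adjusted p = 0.0256). C1qa and C1qc did not pass in edgeR without that library (adjusted p = 0.667 and 0.220). The library with the most C1qb, tdT- M1, also had the highest summed level of microglia markers (515455 normalised counts).

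C3, the component on which all pathways converge, was low and uneven. It had 897, 133, 644 and 133 normalised counts in BLZ945 tdT+ libraries and 714, 2748, 123 and 1095 in tdT- libraries. The lowest and the highest values of these 8 libraries were both in the tdT- group. The log2 fold change without shrinkage was 1.37 with a 95% interval from -0.03 to 2.78 (DESeq2 adjusted p = 0.329), and in edgeR without tdT- F2, which held the highest value, it was 0.49 (adjusted p = 0.890).

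Whether labelled cells of depleted mice differ from those of mice that were never depleted was read from both tdT+ groups, sampled 8 weeks after BLZ945 or vehicle. In DESeq2, 0 of 9 members passed, against 0.961% of genes tested, and in edgeR also 0 of 9, against 0.0656% of genes. At an unadjusted p under 0.05 there was 1 of 9 members in either tool, C5ar1, against 8.13% of genes in DESeq2 and 6.95% in edgeR. C5ar1 had 16645, 17993, 16542 and 14465 normalised counts in vehicle libraries F1, F2, M1 and M2, all below the 18457 of the lowest BLZ945 tdT+ library. It was the 1 of 9 members whose groups did not overlap, against 6.7% of genes. Its log2 fold change without shrinkage was 0.38 (95% interval 0.10 to 0.67, DESeq2 adjusted p = 0.277, edgeR 0.620). It passed in DESeq2 when the 8 libraries of these 2 groups were fitted alone (adjusted p = 0.0243), as it did with the mouse label as a block (0.0178), or when tdT- F2 was left out (0.0243). In the same order these settings passed 325, 367 and 226 genes in all, against 131 in the main fit. The block pairs no animals here, because vehicle and BLZ945 mice share only labels.

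C4b had 29756, 41444, 28584 and 34214 normalised counts in vehicle libraries, overlapping BLZ945 tdT+ cells, with a log2 fold change of 0.21 (95% interval -0.12 to 0.54). The C1q intervals were narrow, from -0.29 to 0.05 for C1qa, -0.19 to 0.26 for C1qb and -0.18 to 0.30 for C1qc. C3ar1 hardly varied among vehicle mice, at 20210, 19728, 20214 and 19608, and its interval ran from -0.03 to 0.29. Cfp had 10883, 9032, 9064 and 7267 in vehicle libraries (interval -0.38 to 0.16), and C3 had 865, 1289, 851 and 511 (interval -2.37 to 0.45).

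**Figure D4:**
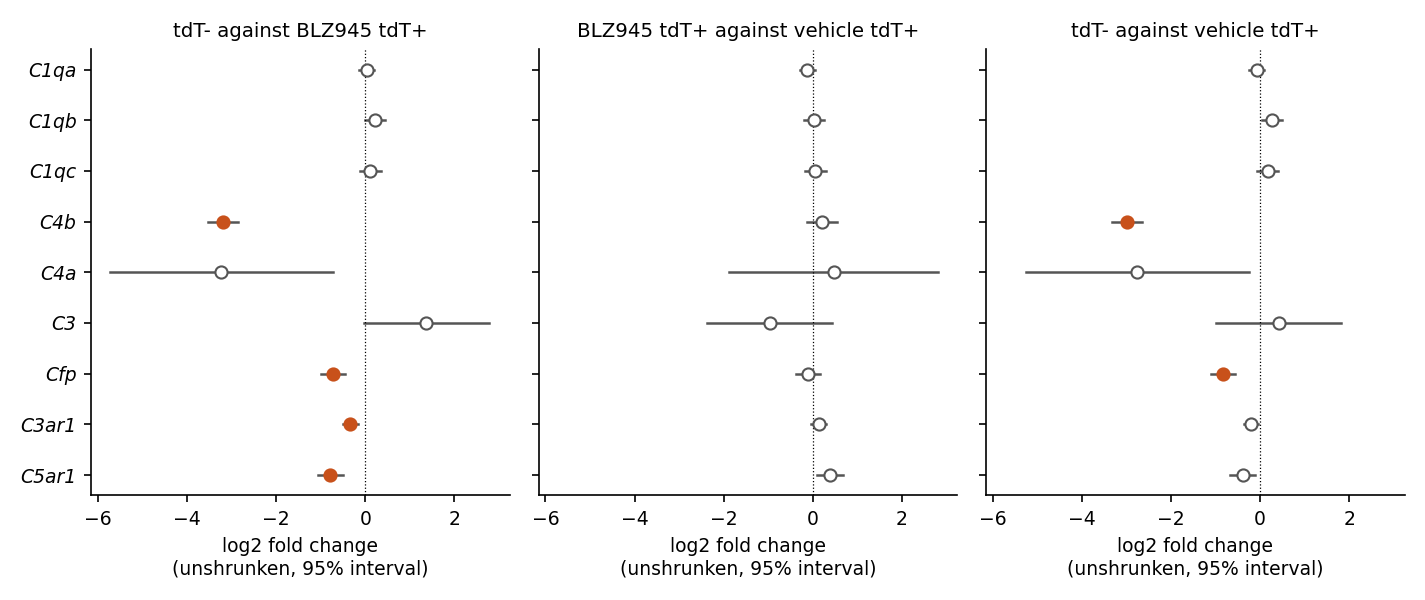
Log2 fold changes without shrinkage (DESeq2) with 95% intervals for the 9 members in the 3 comparisons. Filled points passed an adjusted p of 0.05, which C4b, Cfp, C3ar1 and C5ar1 did in tdT- against BLZ945 tdT+ cells, C4b and Cfp in tdT- against vehicle tdT+ cells, and no member in the comparison of both tdT+ groups (Cfp, C3ar1 and C5ar1 turn positive when scaled to sdCAM markers, while staying below the median of all genes).

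The comparison of tdT- with vehicle tdT+ cells shares the tdT- libraries with the first comparison and is no replication of it. C4b fell 7.93-fold, from 33500 ± 5826 to 4227 ± 1128 normalised counts, with a log2 fold change of -2.97 ± 0.17 (DESeq2 adjusted p = 1.99e-66, edgeR 2.54e-06). Cfp fell 1.79-fold, from 9061 ± 1476 to 5063 ± 482 (-0.80 ± 0.14, DESeq2 adjusted p = 8.58e-08, edgeR 0.00221), but with size factors from the sdCAM markers it stood at 0.12, which is -0.89 relative to the median of all genes. These were 2 of 9 members, both lower, against 6.81% of genes tested, 3.51% in the lower direction and 14.8% of the abundant genes. The same count in edgeR was 2, against 3.25% of genes. C4b was the 1 DEG, against 2.57% of genes, and the groups did not overlap for 4 of 9 members, again among them C4a, against 9.73%.

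C3ar1 and C5ar1 did not pass here, with log2 fold changes without shrinkage of -0.20 (95% interval -0.36 to -0.04, DESeq2 adjusted p = 0.142) and -0.40 (-0.68 to -0.11, adjusted p = 0.0859). Both passed when library totals served as size factors (adjusted p = 0.00588 and 0.0102), and C5ar1 also without tdT- M1 (0.0226). So did C4a (0.0385), but that library held most of its tdT- counts, and the filter kept C4a only through tdT+ libraries. C1qb stood at 0.26 (0.04 to 0.49, adjusted p = 0.187) and without tdT- F2 passed as higher in tdT- cells in DESeq2 (0.37, adjusted p = 5.06e-06) and edgeR (0.35, adjusted p = 0.0131). C1qc without that library passed in DESeq2 (adjusted p = 0.0102) but not in edgeR (0.109). C1qa stood at -0.08 (-0.25 to 0.09).

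Ratios of members within a library do not depend on the size factor. The C1qa to C1qb ratio per length was -0.09 ± 0.02 on the log2 scale in vehicle tdT+, -0.25 ± 0.05 in BLZ945 tdT+ and -0.42 ± 0.13 in tdT- libraries (SD, n = 4). The vehicle libraries (-0.11 to -0.07) lay above all libraries of BLZ945 mice (-0.54 to -0.19). The C1qc to C1qb ratio was -0.74 ± 0.01, -0.72 ± 0.04 and -0.83 ± 0.06, and every tdT- library was below both tdT+ groups. The C3 to C4b ratio was -5.16 ± 0.50, -6.78 ± 1.53 and -2.37 ± 2.04, with all tdT- libraries above both tdT+ groups. The C3ar1 to C5ar1 ratio was -0.46 ± 0.12, -0.71 ± 0.30 and -0.25 ± 0.22, with overlapping groups. Exact permutation tests (two-sided, 70 assignments) gave p = 0.0286, the smallest possible, for 6 of 15 ratio tests, and 0 of 15 passed after adjustment (adjusted p = 0.0714 for these 6). A pass would have needed more of the 15 tests to reach that smallest p, so the lack of one says little. Ratios of other genes were not tested. Paired by mouse, the smallest p that 16 sign flips allow is 0.125, so no such test could pass.

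The other genes of the pathway were taken from a list of 53, of which 16 had 0 counts in all libraries and 23 passed the filter. In tdT- against BLZ945 tdT+ cells 6 of these 23 passed the test, 5 lower and 1 higher, against 6.54% of all genes tested, with a median log2 fold change of -0.01. In edgeR 5 of 23 passed, against 2.75%. In BLZ945 tdT+ against vehicle cells 0 of 23 passed in either tool, against 0.961% of genes in DESeq2 and 0.0656% in edgeR, with 7 at an unadjusted p under 0.05 in each, against 8.13% and 6.95% of genes. In tdT- against vehicle cells 8 of 23 passed, 4 lower and 4 higher, against 6.81%, and 6 in edgeR, against 3.25%.

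Among the components that act beside C4b, C2 had 2563, 1970, 2925 and 2616 normalised counts in BLZ945 tdT+ libraries F1, F2, M1 and M2 and 25.0, 75.3, 71.7 and 128 in tdT- libraries. C2, the partner of C4b in the C3-cutting enzyme, thus fell 33.6-fold, with a log2 fold change of -5.02 ± 0.34 (DESeq2 adjusted p = 9.47e-48, edgeR 1.13e-05). Its gene lies on chromosome 17 (35081580 to 35117241), and of its 3872 exon bases 1656 overlap Gm20547 on the same strand and 161 overlap Zbtb12. Over all 12 libraries these had 0 and 146 counts, against 19183 for C2, and a read that fits 2 genes equally was not counted. Fcna, a ficolin of the lectin pathway, had 11046 to 16475 normalised counts in BLZ945 tdT+ and 1378 to 2272 in tdT- libraries, a 7.44-fold fall (-2.88 ± 0.17, adjusted p = 1.38e-61, edgeR 1.82e-06). Against vehicle, C2 fell 27.0-fold and Fcna 5.47-fold. C1ra, a protease of the C1 complex, had 436 ± 142 normalised counts in tdT- and 356 ± 98.2 in BLZ945 tdT+ cells (adjusted p = 0.842). Fcnb, a ficolin of neutrophils and monocytes, had 3460 counts in tdT- F2 and 0 in the other 11 libraries.

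Among the regulators, Cd55, which speeds the decay of C3-cutting enzymes at the cell surface, had 1170, 2019, 2368 and 1391 normalised counts in BLZ945 tdT+ and 11.5, 57.4, 378 and 273 in tdT- libraries. The groups did not overlap and the fall was 9.66-fold (-3.00 ± 0.67, adjusted p = 1.63e-05, edgeR 0.0259), though not passed in edgeR with the mouse as a block (0.102) or without tdT- F2. Against vehicle, Cd55 fell 7.67-fold (DESeq2 adjusted p = 1.75e-04, edgeR 0.0386), and edgeR without tdT- F2 gave an adjusted p of 0.0790. Cr1l, another membrane regulator, had 3339 ± 299 in tdT- and 2774 ± 409 in BLZ945 tdT+ cells (adjusted p = 0.484).

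Among the other receptors, Itgb2, the common chain of complement receptors 3 and 4, had 7843 to 8261 normalised counts in BLZ945 tdT+ and 10825 to 11784 in tdT- libraries. It rose 1.40-fold (0.45 ± 0.12, DESeq2 adjusted p = 0.00301), but did not pass in edgeR (0.0645, with the mouse as a block 0.122). Against vehicle (4931 to 7753) it rose 1.70-fold (0.73 ± 0.13, adjusted p = 7.99e-08, edgeR 0.00387). Itgam, its partner in complement receptor 3, rose 1.74-fold against vehicle, from 2674 ± 564 to 4657 ± 705 (0.75 ± 0.17, adjusted p = 8.76e-05, edgeR 0.0135), and stood at 3510 ± 177 in BLZ945 tdT+ cells (adjusted p = 0.143 against tdT- cells). Itgax, the partner in complement receptor 4, was singled out after its values were seen, and had 0 to 66.4 normalised counts in the 8 tdT+ libraries and 114, 522, 1166.5 and 299 in tdT- libraries, without passing the test (adjusted p = 0.125 against BLZ945 tdT+ cells). Its call was unstable, as it passed in 8 of 22 alternatives against BLZ945 tdT+ cells and in 3 of 22 against vehicle tdT+ cells.

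Cd93, once described as a C1q receptor, fell 1.84-fold in tdT- against BLZ945 tdT+ cells (-0.81 ± 0.20, adjusted p = 2.03e-04, edgeR 0.0161, edgeR with the mouse as a block 0.0824). With the sdCAM marker scaling it stood at 0.24, which is -0.91 relative to the median of all genes. Calr and Lrp1, which have been proposed to bind C1q together, rose 1.37-fold and 1.45-fold in tdT- against vehicle cells in DESeq2 (adjusted p = 0.00877 and 0.0262), though neither passed in edgeR (0.107 and 0.114). Against BLZ945 tdT+ cells, where Calr had 21148 and Lrp1 3852 on average, their adjusted p was 0.904 and 0.993. Between both tdT+ groups Calr, Fcna, Itgb2 and Itgam, among the highest of these genes per length, did not pass, with DESeq2 adjusted p of 0.156, 0.277, 0.463 and 0.410. C5ar2, the second receptor of C5a, had 1047 ± 381 in vehicle, 919 ± 239 in BLZ945 tdT+ and 967 ± 43.9 in tdT- cells, and passed in none of the 3 comparisons. Vsig4, a receptor for fragments of C3, had 104.9 to 402 normalised counts in the 8 tdT+ libraries, while tdT- libraries had 0, 3.77, 0 and 250.5, and the test was not passed (adjusted p = 0.620 against BLZ945 tdT+ and 0.450 against vehicle tdT+ cells). In either comparison it passed in 2 of 22 alternatives, DESeq2 with the replicate block and without tdT- M2. That library held the 250.5, and the filter kept Vsig4 through its tdT+ libraries.

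**Figure D5:**
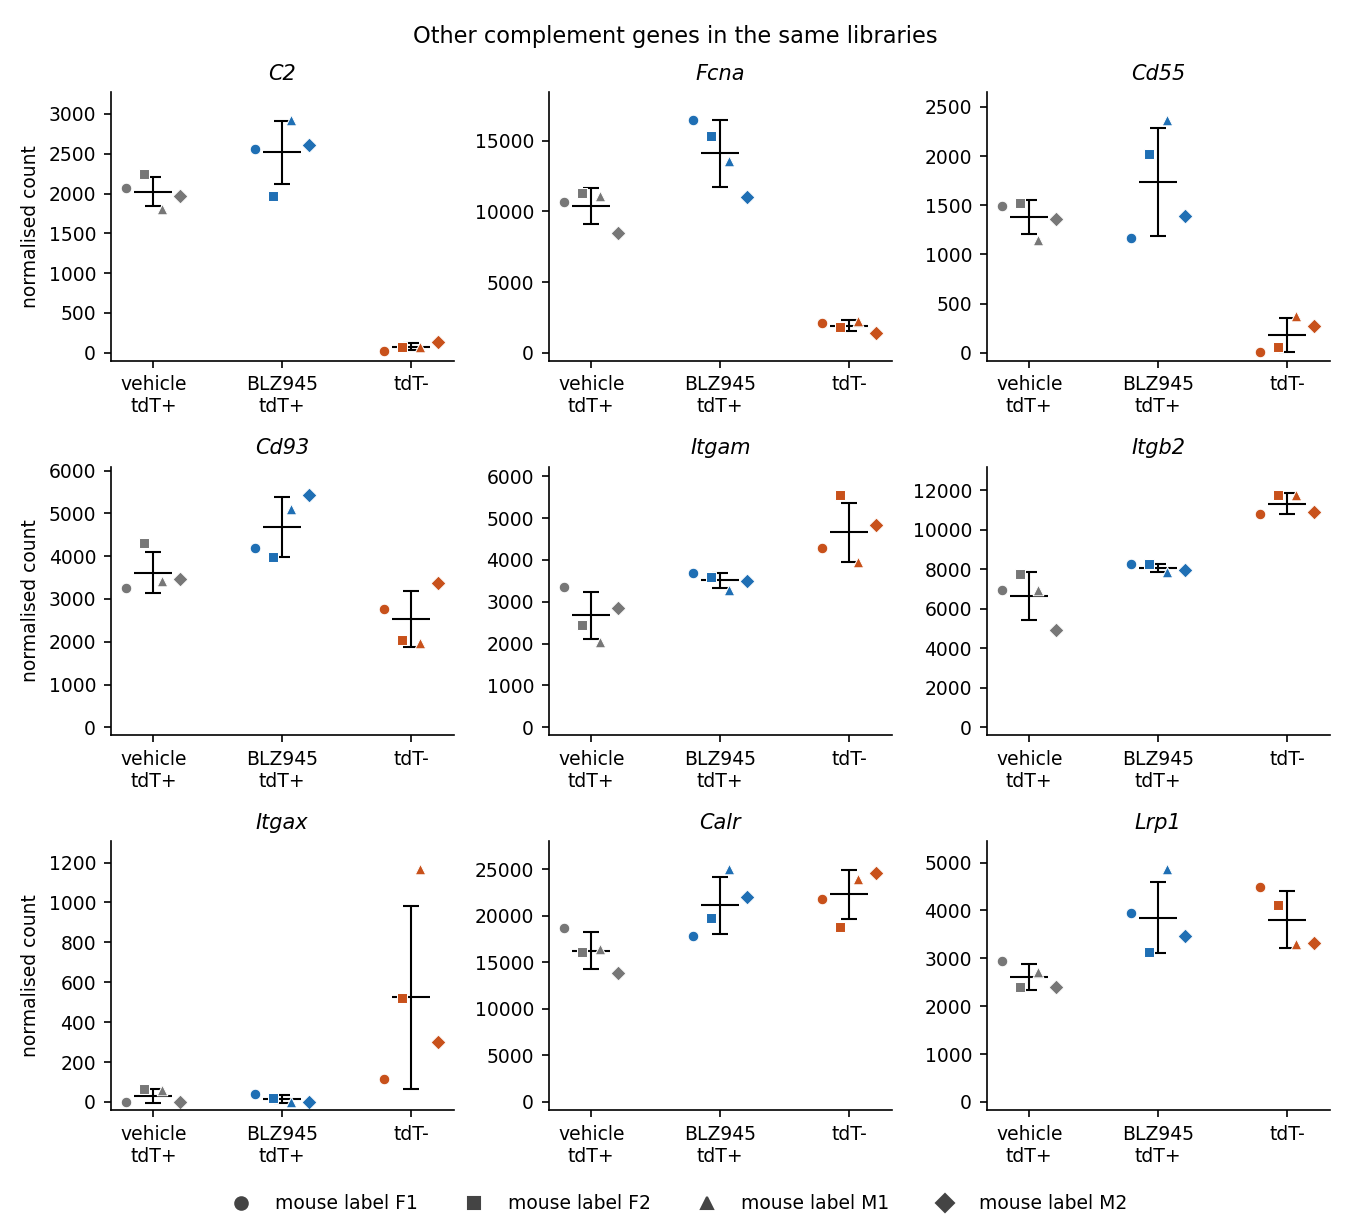
Normalised counts of 9 other complement genes in the 12 libraries, 1 symbol per library with the shape giving the mouse label, and the mean ± SD of each group of 4. C2, Fcna and Cd55 have tdT- libraries far below both tdT+ groups, Cd93 lies lower than in BLZ945 tdT+ cells on average (0.24 when scaled to sdCAM markers, -0.91 relative to the median of all genes under that scaling), and Itgb2, Itgam, Calr and Lrp1 were higher on average than in vehicle cells.

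The profiles over the 12 libraries were compared by the root mean square difference of log2 values centred per gene, among 5695 genes averaging 500 normalised counts or more. The 5 genes nearest to C4b were Colec12 (0.32), Cd163 (0.37), Fcna (0.41), Hgsnat (0.48) and Cd209g (0.49). Cd163 is also 1 of the 10 sdCAM markers. Colec12 had 6918, 8645 and 899.7 normalised counts on average in vehicle tdT+, BLZ945 tdT+ and tdT- cells. The 5 nearest to C1qb were Cnpy3 (0.08), Ctsh (0.09), Cyba (0.10), Capzb (0.10) and Atraid (0.10), with SDs of 0.13 to 0.21 over the libraries, where C1qb had 0.20. These values describe likeness only, and the 12 points share 3 groups and 8 mice.

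The labels of the mice begin with F or M. Over the 8 tdT+ libraries 0 of 9 members differed between letters in DESeq2, against 0.226% of genes, and 0 of 9 in edgeR. At an unadjusted p under 0.05 there were also 0 in either tool. For that cut and for edgeR the share of all genes was not computed, so these counts are no result about the members. C4b had 35993 normalised counts on average in F and 36228 in M libraries, a log2 difference of 0.00 (95% interval -0.23 to 0.24). An interaction of letter and group was not found by edgeR for any gene in tdT- against BLZ945 tdT+ cells (822 genes at an unadjusted p under 0.05) or in BLZ945 tdT+ against vehicle cells (632 genes). The member with the smallest unadjusted p was C1qc (0.0214, adjusted p = 0.717), whose log2 fold change between tdT- and BLZ945 tdT+ cells was 0.49 larger in mice labelled M.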

How the data were processed

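Whole-number read counts per gene name and library were deposited, neither normalised nor pooled. Per the file headers, the authors counted exons of a filtered GENCODE annotation (GRCm39) with featureCounts 2.0.6, without strand and without multi-mapping reads. The submitters' processing notes name STAR 2.7.11a. Counts are of amplified libraries and not of independent molecules, so intervals of shares cover counting error only. All 12 count columns were assigned by library name, and 1 vehicle column whose mouse label differs from its library number was assigned by that number.

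In R 4.3.3, genes with under 10 counts in at least 75% of libraries were removed, leaving 13724. DESeq2 1.42.0 (two-sided Wald test, 12 libraries in 1 fit, group as the term) was used as in the study's methods, with apeglm 1.24.0 shrinkage, and edgeR 4.0.16 (quasi-likelihood, TMM) as an alternative. Both were run on simulated data, where DESeq2 made more false calls than edgeR in both comparisons with BLZ945 tdT+ cells. Fold changes given as ± are shrunken with their SE, and folds are ratios of group means. Intervals with the words without shrinkage are Wald intervals. Exact tests used SciPy 1.17.1, and C4a and C4b were aligned with Biopython 1.88.

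Members and gene lists were chosen with earlier results of these data known. Named genes are the 9 members, other complement genes that passed and averaged 50 normalised counts or more, the 5 others of highest level per length in each comparison, and the 5 genes most like C1qb and C4b, and 1 gene that enters the counts is not reported here by name. Pairing of tdT- and BLZ945 tdT+ libraries comes from the shared mouse. Their deviations from group means correlated by 0.106 to 0.264 (3538 genes), a range that overlaps the 0.0264 to 0.184 of vehicle and BLZ945 libraries that share only a label. No replicate pair was near sampling noise (smallest chi-square per degree of freedom 45.6 over 18 pairs). Alternatives were other size factors, no filter, the 2 groups alone, the mouse as a block, summed C4 rows and each library left out.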

Additional observations from a re-analysis of the deposited data

Results flagged for a closer look

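Dixon's test was applied to the 9 members in the 3 groups of 4 libraries (27 sets of values). It marked 1 of 27 at the 95% level, where chance alone gives 1.35 (1 in 20). This was C4a in tdT- cells, where the library M1 stood at 7.38 normalised counts and the other libraries between 0 and 1.04, a gap of 0.859 of the range. The cause was not tested.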

How the results depend on the processing

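C4b, alone and summed with C4a, kept its direction and its side of the threshold under every alternative in all 3 comparisons (42 of 42 for the sum). The alternatives chosen after the data had been seen were size factors from the sdCAM markers, edgeR with the replicate block and edgeR without tdT- F2.

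For tdT- against BLZ945 tdT+ cells, 4 of 9 members passed, and 1 with the fold threshold of a DEG, 1 in edgeR with the mouse as a block and 8 with size factors from the sdCAM markers, while leaving out single libraries gave 4 to 5. DESeq2 with the mouse as a block passed 4. Of the other complement genes 6 passed, 3 in edgeR with the block, 12 with the sdCAM marker scaling and 4 to 8 without single libraries. With that scaling the log2 fold changes turned to 0.39 for Cfp, 0.79 for C3ar1, 0.34 for C5ar1, 0.24 for Cd93 and 1.11 for Lrp1. Relative to the median of all genes, which that scaling put at 1.14, they stood at -0.76, -0.35, -0.80, -0.91 and -0.03. That scaling passed 6718 genes in all, 6598 of them higher, and edgeR with the block passed 100, against 875 and 377 without these choices. DESeq2 with the mouse as a block passed 998, and without single libraries it passed 708 to 1047. Leaving out single libraries, C6 ranged from -0.0745 without tdT- M2, where it passed, to 0.028 without BLZ945 tdT+ M2. The library tdT- M2 held all 185 tdT- counts of C6. Over all 22 alternatives C6 ranged from -1.82 to 0.40, which mixes shrunken values of DESeq2 with unshrunken ones of edgeR.

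For BLZ945 tdT+ against vehicle cells, 0 members passed, but 1 with the 2 groups alone, with or without the replicate block, and 0 to 1 without single libraries. Of the other genes 0 passed, but 1 with no filter, 4 with the 2 groups alone, 4 with the block and 0 to 2 without single libraries. Over all genes 131 passed, 256 with no filter, 325 with the 2 groups alone, 367 with the block and 129 to 226 without single libraries.

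For tdT- against vehicle cells, 2 members passed, and 1 as DEG, 4 with library totals, 1 in edgeR with the replicate block, 6 with the sdCAM marker scaling and 2 to 4 without single libraries. Of the other genes 8 passed, and 3 as DEGs, 2 in edgeR with the block (C2 and Fcna), 13 with the sdCAM marker scaling, 4 in edgeR without tdT- F2 and 4 to 10 without single libraries. That scaling turned C1qa to 0.88, Cfp to 0.12, C3ar1 to 0.75, C5ar1 to 0.55, C5ar2 to 0.80 and Cd93 to 0.43, with the median of all genes at 1.003. Relative to that median they stood at -0.12, -0.89, -0.25, -0.46, -0.20 and -0.58. Such values have the shift of the scaling taken out and cannot test the signs. That scaling passed 6036 genes in all, 5886 of them higher, and edgeR with the block 103. Library totals passed 954, edgeR without tdT- F2 415 and DESeq2 without single libraries 806 to 1125, against 928 in the main fit. Between the tdT+ groups that median was -0.14. The vehicle mice share only labels with the BLZ945 mice, so blocks with them pair no animals.

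Over all genes, 875, 131 and 928 passed in the 3 comparisons in DESeq2 and 377, 9 and 446 in edgeR. The cause of these changes was not tested, except that fewer samples enter some alternatives.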
